A study of Sus scrofa with 4 samples.

Results

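The cytosolic ribosomal proteins build the large and small subunits of the ribosome outside mitochondria. They were taken from the probes of a porcine oligonucleotide array by the gene symbol in the platform table: RPSA, symbols beginning with RPLP, and RPL or RPS followed directly by a number, leaving out the RPS6 kinases. The letters of that rule took 49 probes, 1 of which reads RPS19BP1. That gene encodes a protein that binds RPS19 and is no part of the ribosome, so its probe was set aside. The remaining 48 probes, of 43794 on the array and 13146 with 1 gene symbol, stand for 36 of the 10024 genes so named, of which 20 belong to the large subunit, 1 to its stalk and 15 to the small subunit. RPSA, RPLP0, RPLP1 and RPS6 were not analysed here.

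Most ribosomal proteins are present once in each ribosome, and cells make them in matched amounts. Their mRNAs begin with a stretch of pyrimidines that ties their translation to the mTOR pathway, which senses nutrients. In the preimplantation embryo, new ribosomes are made once the embryo's own genome is switched on, and unassembled ribosomal proteins can bind the ubiquitin ligase MDM2. Mammalian genomes also carry many processed copies of these genes, and the sources used here do not say whether a probe tells a gene from its copies.

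The material came from pig (Sus scrofa) blastocysts, the embryo stage with an outer trophectoderm and an inner cell mass, on 4 arrays with 2 dyes each. Every array set 1 pool of blastocysts grown from oocytes exposed to high NEFAs (non-esterified fatty acids) against 1 pool from control oocytes, and both kinds of pool held 10 blastocysts collected on days 7 and 8. The series title adds a co-culture on a monolayer of GCs, an abbreviation that the labels leave unexplained, and no dose or duration of exposure is given. Replicates 1 and 2 carried the high NEFA pool in Cy3 and the control pool in Cy5, and replicates 3 and 4 had the dyes exchanged. The labels call the arrays biological replicates but do not name separate sows or collections, so each test below measures the spread between these pools, which may be partly technical. The labels give total RNA as the molecule, while their protocols describe genomic DNA cut with enzymes that spare methylated sites. Which of these was hybridised was not tested, and the values are therefore given as intensities and ratios.

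On each array, 45220 spots were read, between 57.1% and 60.3% of probes were above background in Cy3, and between 49% and 51.2% were so in Cy5. A probe was above background where it exceeded the mean of 153 negative control spots by over 2 SD. Among the tissue markers, 7 of 10 trophectoderm genes (GATA2, GATA3, TFAP2C and ELF5 among them) exceeded background in all 8 channel measurements, that is, in both dyes of 4 arrays. So did 1 of 6 inner cell mass genes (UTF1), 7 of 9 primitive endoderm genes, 2 of 9 granulosa cell genes (AMH and FST) and 5 of 16 oocyte genes. The lists named 15 trophectoderm, 11 inner cell mass, 12 endoderm, 19 granulosa and 19 oocyte genes, of which the rest were not analysed here. POU5F1 and NANOG of the inner cell mass list and CDX2, KRT8 and KRT18 of the trophectoderm list were among those not analysed. PRDM14 of the inner cell mass list, AFP of the endoderm list, and BMP15 and NOBOX of the oocyte list were above background in none. The intensities of a marker list, after loess and a scaling between arrays, were summed before the log2 was taken, so its brightest genes weigh most. The value of the trophectoderm list was 15.77 to 16.31 in the high NEFA pools and 15.73 to 16.14 in the control pools. That of the granulosa list was 11.26 to 12.07 against 11.17 to 11.67, and 7 of 8 tested trophectoderm genes had ratios above 0 (median 0.20, 0 past the adjusted threshold). At an unadjusted threshold of 0.05, limma called 4 of these 8 by their brightest tested probe, DLX3, GATA3, TFAP2C and DAB2. All were higher in high NEFA, against 3.17% of all tested probes that were called higher. The second tested probe of DAB2 was at -0.12, that of TFAP2C at 0.17 and that of TEAD4, which was not called, at -0.14. DLX3 had a fitted log2 ratio of 0.565 from ratios of 1.31, 0.98, -0.10 and 0.07. It was above background in 2 high NEFA and 2 control pools, each time in Cy5 and never in Cy3. Each of its ratios therefore set a reading above background against one that was not. TFAP2C had 0.37 from ratios of 1.11, 0.35, 0.05 and -0.03. For the other marker lists, the genes of smallest p follow, with the tested genes above and below 0. The inner cell mass list had SOX15 at -0.53 and UTF1 at 0.36 (2 above, 2 below). The endoderm list had LAMB1 and APOA1, both at -0.35, although 5 genes lay above 0 and 3 below (median 0.01). The granulosa list had FST at 0.42 and GATM at 0.25 (3 above, 2 below). The oocyte list had GDF9 at -0.33 and ZAR1 at 0.30 (4 above, 6 below). GATM had ratios of -0.541, -0.452, 0.825 and 1.155, which changed sign with the dye order. SOX15 and GATM were above background in 2 pools of each kind and ZAR1 in 4 high NEFA pools and 1 control pool. The part of these cells in the values below was not tested. In pooled embryos, fewer cells of a type and less signal per cell cannot be told apart.

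Of the 48 ribosomal protein probes, 45 were above background in all 8 channel measurements, 2 in 4 to 7 and 1 in fewer than 4. The last was the probe of RPL5, which carries the small ribosomal RNA of the large subunit and takes part in the binding of MDM2. RPL5 was above background in 2 high NEFA and 1 control pools and was not tested. Its log2 ratios of high NEFA over control were 0.57, 0.87, -0.29 and -0.77 on replicates 1 to 4, with the sign turning where the dyes were exchanged. The tested set was 47 probes of 35 genes, within 24505 tested probes in all.

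The median scanner intensity of the 48 probes was 36763, 30327, 41625.5 and 34477.5 in Cy3 on replicates 1 to 4, and 24349, 37039, 39108.5 and 43617 in Cy5. The scale ends at 65535. Of 192 Cy5 readings of these probes, 10 were at or above 65000, and these came from 7 probes. None was in Cy3. The first RPS24 probe (EMPV1_41259) held 1 of these on each array. On replicates 1, 2 and 4 it read 65535, where a reading is only a lower bound, so those ratios are bounds too. On replicate 3 it read 65140. The other 6 readings were 1 each of RPL8, RPL10A, RPL24, RPL36, RPS25 and the second RPS24 probe. Of these, RPS25 read 65535 on replicate 3, and the rest lay below the end of the scale.

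**Figure D1:**
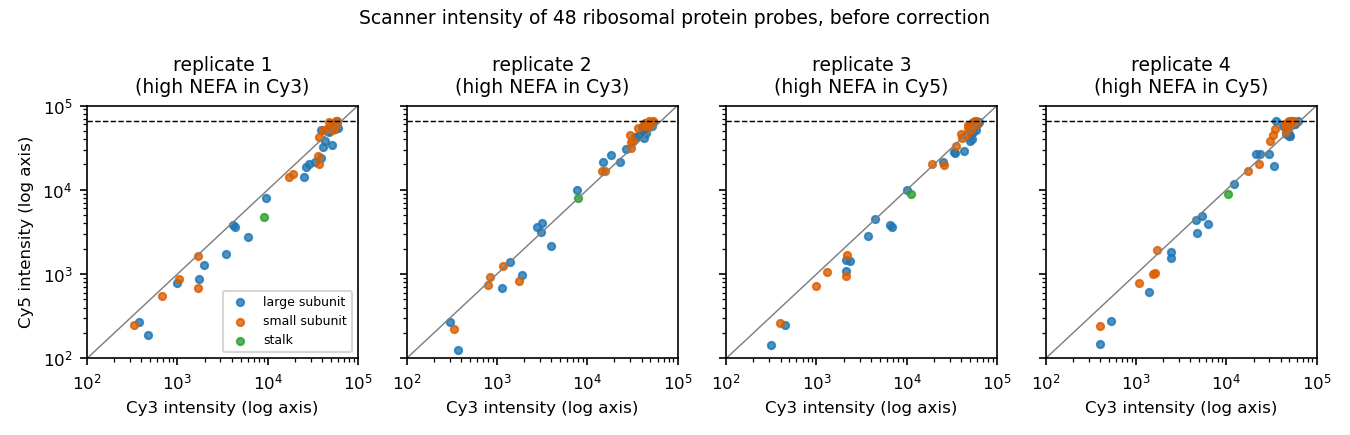
Scanner intensity in Cy3 (horizontal, log axis) and Cy5 (vertical, log axis) of 48 ribosomal protein probes on each of 4 arrays, before any correction, with the line of equal intensity and, dashed, the end of the scale at 65535. Most points crowd below the dashed line, and on replicate 1 most lie under the line of equal intensity.

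The exposure was compared through the log2 ratio of high NEFA over control on each array, after background correction and loess normalization. limma's fit across all probes gave for each the exposure ratio, apart from the dye effect. The standard error (SE) of each ratio was moderated, combining the probe's own spread over the 4 arrays with that of all tested probes. Of its degrees of freedom, 2 came from the probe's own arrays and 7.84 from all tested probes. No ribosomal protein probe differed between high NEFA and control pools at an adjusted p under 0.05. The smallest adjusted p among the 47 probes was 0.766, and of all 24505 probes 0 passed (0%). The fitted ratios of the 47 probes ran from -0.55 to 0.29 with a median of -0.02, 22 of them above 0 and 25 below. All tested probes had a median of -0.01. By the brightest tested probe of each gene, the median over the 35 genes was 0.02, and 19 were above 0 and 16 below.

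At an unadjusted threshold of 0.05, limma called 2 of the 47 probes, both lower in high NEFA, 1 for RPL26L1 and 1 for RPL35. Among all tested probes, 1570 were called at that threshold (6.41%), and 793 of them were lower (3.24%). The members' share is near that background. Only the RPL26L1 probe had the same sign on all 4 arrays, as had 1917 of all tested probes (7.82%). The 95% interval of a member taken alone extended, in the median, by a log2 value of 0.29 (1.23-fold) in each direction. The adjusted test over all probes needs a larger difference, and the RPL26L1 probe missed it at -0.55.

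On replicate 2, 43 of the 47 probes (91.5%) were lower in the high NEFA pool, with a median log2 ratio of -0.34, while 53.5% of all tested probes were lower and their median was -0.03. On replicate 4 the members' median was 0.17 and 12 of 47 (25.5%) were lower, against a median of 0.04 and 46.4% of all probes. Replicate 3 gave 0.13 with 15 lower (31.9%), against 0.04 and 46.7% of all probes. On replicate 1 the members did not stand apart, with a median of -0.03 and 55.3% lower, against -0.04 and 53.7% of all probes. On each array the members' median had the sign of the all-probe median. The SD over the 47 probes was 0.38, 0.32, 0.25 and 0.31 on replicates 1 to 4, narrower on each array than the 0.47, 0.46, 0.49 and 0.48 of all tested probes.

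**Figure D2:**
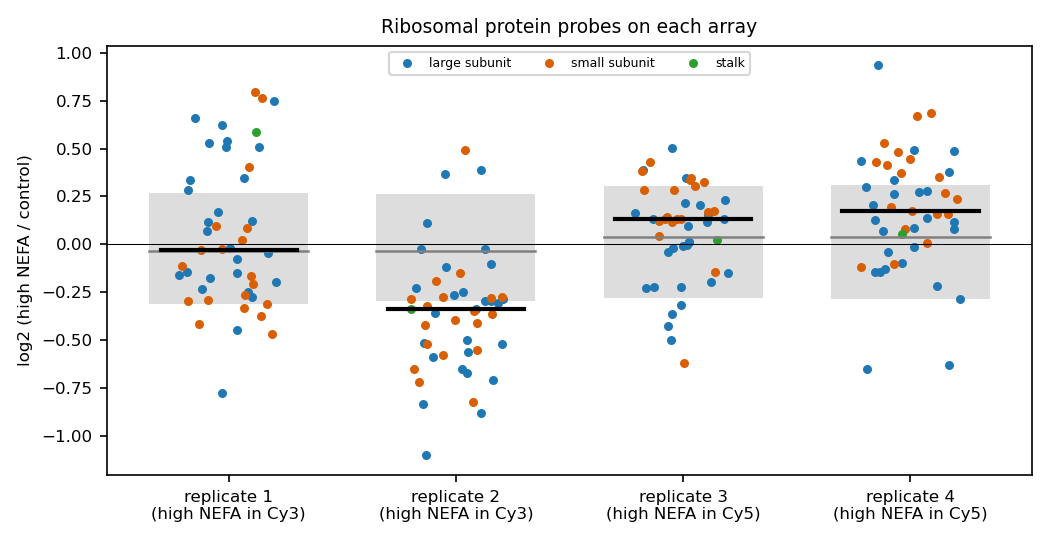
Log2 ratio of high NEFA over control for each of 47 ribosomal protein probes (points, coloured by subunit) on each of 4 arrays, with the members' median (black bar) and the median and interquartile range of all 24505 tested probes (grey line and box). The members' median is -0.34 on replicate 2, below the grey box, and 0.13 and 0.17 on replicates 3 and 4.

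The dye effect of the fit, log2 of Cy5 over Cy3 with the exposure held apart, had a median of 0.22 over the 47 members and was above 0 in 35 of them (74.5%). Over all tested probes its median was 0.07, and 58.5% were above 0. Among the 2025 other tested probes at least as bright as the members' lower quartile, a mean log2 intensity of 12.04, the median dye effect was 0.04 and 54.3% were above 0. Their median ratios were near 0 on each array, -0.02 on replicate 2 among them. Brightness above that floor was not matched. Of the 35 members at or above it, with a median dye effect of 0.22, 35 were lower on replicate 2 (median -0.34). Of the 12 members below it, 8 were lower there. The medians of these 2 groups of members on replicate 4 were 0.24 and -0.10. The dye effect passed an adjusted p of 0.05 in 6 members, a smaller share than the 5591 of all probes (22.8%). These were RPL32, RPS27L and 1 probe each of RPL30, RPL36, RPS19 and RPS3A. Each condition was in Cy3 on 2 arrays and in Cy5 on 2, so a dye effect shared by all arrays cancels in the fitted exposure ratio. Its part in the shift of a single array was not tested.

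The size of the shift on replicate 2 differed with the processing. When each spot was summarised by its mean pixel, the members' median there was -0.17, with median centring in place of loess -0.63, and in the authors' log2 matrix, turned by dye, -0.21. On replicate 1 the same settings gave 0.02, -0.25 and 0.11, so the sign of that array's median changed with the setting. On replicate 3 they gave 0.08, 0.29 and -0.04, and on replicate 4 0.08, 0.42 and 0.05. The members' median dye effect was 0.08, 0.39 and 0.04 under the same settings in that order, and 0.10 without replicate 2.

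**Figure D3:**
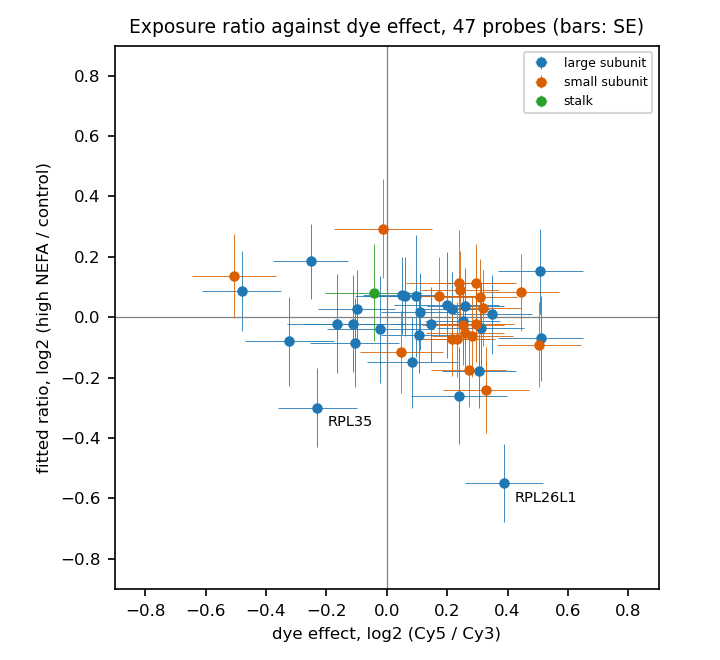
Fitted log2 ratio of high NEFA over control (vertical) against the fitted dye effect, log2 of Cy5 over Cy3 (horizontal), for 47 ribosomal protein probes coloured by subunit, with SE bars on both axes. Points lie within 0.3 of 0 on the vertical axis apart from the second RPL26L1 probe at -0.55, and 35 of 47 lie right of 0.

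The stalk is the flexible arm of the large subunit that recruits elongation factors, and RPLP2 was its only protein analysed here. Its log2 intensity was 12.97, 12.95, 13.23 and 13.12 in the high NEFA pools of replicates 1 to 4, and 12.38, 13.29, 13.21 and 13.06 in their control pools. The ratios were 0.59, -0.34, 0.02 and 0.06, and the fitted ratio was 0.08 ± 0.16 (SE, n = 4 arrays; adjusted p = 0.941). The groups overlapped, and the control pool of replicate 1 was the low value.

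In the large subunit, 19 genes were tested, 11 higher and 8 lower in high NEFA, with a median fitted ratio of 0.02. RPL30, which also binds the element that directs selenocysteine into proteins, had the lowest ratio by its brightest probe. RPL30 (EMPV1_26095) gave 15.24, 15.37, 15.88 and 15.91 in the high NEFA pools against 15.69, 15.89, 15.77 and 15.78 in the control pools. Its fitted ratio was -0.18 ± 0.12 (SE; 95% interval -0.45 to 0.10; adjusted p = 0.806). The high NEFA pools of replicates 1 and 2 were below all control pools and those of replicates 3 and 4 were within or just above them. The second RPL30 probe had ratios of -0.28, -0.88, 0.50 and 0.38, which turn with the dye in the same way, and a fitted ratio of -0.07.

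RPL19, whose tail reaches over to the small subunit, had log2 ratios of 0.12, -0.59, -0.20 and 0.07 and a fitted ratio of -0.15 ± 0.15 (SE; adjusted p = 0.855). RPL9, which lies near the base of the stalk, had ratios of 0.51, -0.02, -0.15 and -0.65, and its fitted ratio was -0.08 ± 0.15 (SE; adjusted p = 0.934). In both genes 2 arrays lay far apart, replicates 1 and 2 in RPL19 although they share a dye order, and replicates 1 and 4 in RPL9.

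RPL35, a protein at the exit of the peptide tunnel, was read by 2 probes. The brighter one (EMPV1_21864) had ratios of 0.35, -0.30, -0.37 and -0.01 and a fitted ratio of -0.08 ± 0.15 (SE; adjusted p = 0.928). The dimmer one (EMPV1_21295) read 9.56, 9.97, 10.30 and 9.31 in the high NEFA pools against 9.81, 9.86, 10.73 and 9.94 in the control pools, with a fitted ratio of -0.30 ± 0.13 (SE; 95% interval -0.59 to -0.01; adjusted p = 0.766). This dimmer probe was lower in high NEFA on 3 of 4 arrays, replicate 2 being the exception, and its groups overlapped. With the mean pixel intensity its ratio was -0.12.

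RPL26L1 is a close paralog of RPL26, a protein of the large subunit. Its brighter probe (EMPV1_17816) read 13.10, 12.88, 13.38 and 13.52 in the high NEFA pools against 13.12, 13.55, 13.03 and 13.32 in the control pools. The fitted ratio of this probe was -0.03 ± 0.14 (SE; adjusted p = 0.972), with the groups overlapping and replicate 2 the low value. The dimmer probe (EMPV1_05783) read 7.46, 7.23, 8.02 and 8.12 in the high NEFA pools and 8.23, 8.33, 8.24 and 8.22 in the control pools. On these values, which were scaled between arrays, all 4 high NEFA pools were below all 4 control pools. The scanner intensities before correction overlapped. The gap was wide on replicates 1 and 2 and narrow on replicates 3 and 4. The ratios were -0.77, -1.10, -0.22 and -0.10, and the fitted ratio was -0.55 ± 0.13 (SE; 95% interval -0.84 to -0.26; adjusted p = 0.766).

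The dimmer RPL26L1 probe was near background, and it was above it in 3 of 4 high NEFA and all 4 control pools. Its scanner intensities were 377, 300, 250 and 276 in the high NEFA pools and 272, 272, 449 and 522 in the control pools, while the negative controls averaged 241 to 303 in Cy3 and 148 to 178 in Cy5. With the mean pixel intensity its fitted ratio was -0.04, and over all alternatives it ran from -0.65 to -0.04 with adjusted p from 0.111 to 1. The brighter probe of the same gene did not show the difference.

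RPL35A, a protein mutated in some patients with Diamond-Blackfan anaemia, had a pair of probes that also differed. The brighter one (EMPV1_42423) had ratios of 0.12, -0.10, -0.04 and 0.30 and a fitted ratio of 0.07, and the dimmer one (EMPV1_34938) had -0.16, -0.83, -0.32 and 0.28 with a fitted ratio of -0.26 ± 0.16 (SE; adjusted p = 0.786). Replicate 2 was low with the dimmer probe, and replicate 4 was the high value with both.

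RPL36 (EMPV1_16187) had the widest spread over arrays of all 35 genes. It read 15.68, 15.49, 15.97 and 15.97 in the high NEFA pools against 15.88, 16.01, 15.59 and 15.03 in the control pools. Its ratios of -0.20, -0.52, 0.39 and 0.94 changed sign with the dye order, its fitted dye effect was 0.51, and its exposure ratio was 0.15 ± 0.14 (SE; adjusted p = 0.847). The control pool of replicate 4 was the low value and the groups overlapped. The high NEFA reading of replicate 4 was 65018, close to the end of the scale but below it. With readings at or above 65000 left out, the fitted ratio was 0.015. The second RPL36 probe had a fitted ratio of -0.04.

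RPL17, which lines the peptide tunnel, and RPL32 had the next widest spreads. RPL17 had ratios of 0.66, -0.71, -0.005 and 0.34 and a fitted ratio of 0.07 ± 0.20 (SE; adjusted p = 0.958), which was -0.27 without replicate 1 and 0.41 without replicate 2. Replicates 1 and 2 lay at opposite ends although both held the high NEFA pool in Cy3. RPL32 had ratios of 0.75, 0.39, -0.50 and -0.29, which turned with the dye order against the sense of most members. Its dye effect was -0.48 and its exposure ratio 0.09 ± 0.13 (SE; adjusted p = 0.911).

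RPL10L is a retrocopy of RPL10 that in mouse takes its place in the male germ line during meiosis. It read 10.45, 10.73, 10.76 and 10.64 in the high NEFA pools against 9.95, 10.37, 10.74 and 10.79 in the control pools. Its fitted ratio of 0.18 (95% interval -0.09 to 0.46; adjusted p = 0.801) was the highest of the large subunit genes. It was higher on replicates 1 and 2, level on replicate 3 and slightly lower on replicate 4, and the groups overlapped. The platform symbol cannot show whether the probe also reads RPL10, which RPL10L closely resembles.

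The other 9 large subunit genes had fitted ratios between -0.06 and 0.07. RPL7 was at -0.06, RPL12, which sits at the base of the stalk, at -0.02 and RPL14 at -0.02. RPL4, which also lines the peptide tunnel, was at 0.01, RPL34 at 0.02 and RPL10A, in the mobile arm by the exit site of tRNA, at 0.03. RPL8, next to the site of peptide bond formation, and RPL23A, a docking site at the tunnel exit, were both at 0.04, and RPL24, which bridges the subunits, was at 0.07. The ratios of RPL23A were 0.34, -0.65, -0.02 and 0.49, so that a fitted value near 0 came from arrays that lay well apart. Those of RPL12 (EMPV1_33549), -0.08, -0.26, 0.13 and 0.12, lay closer together.

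**Figure D4:**
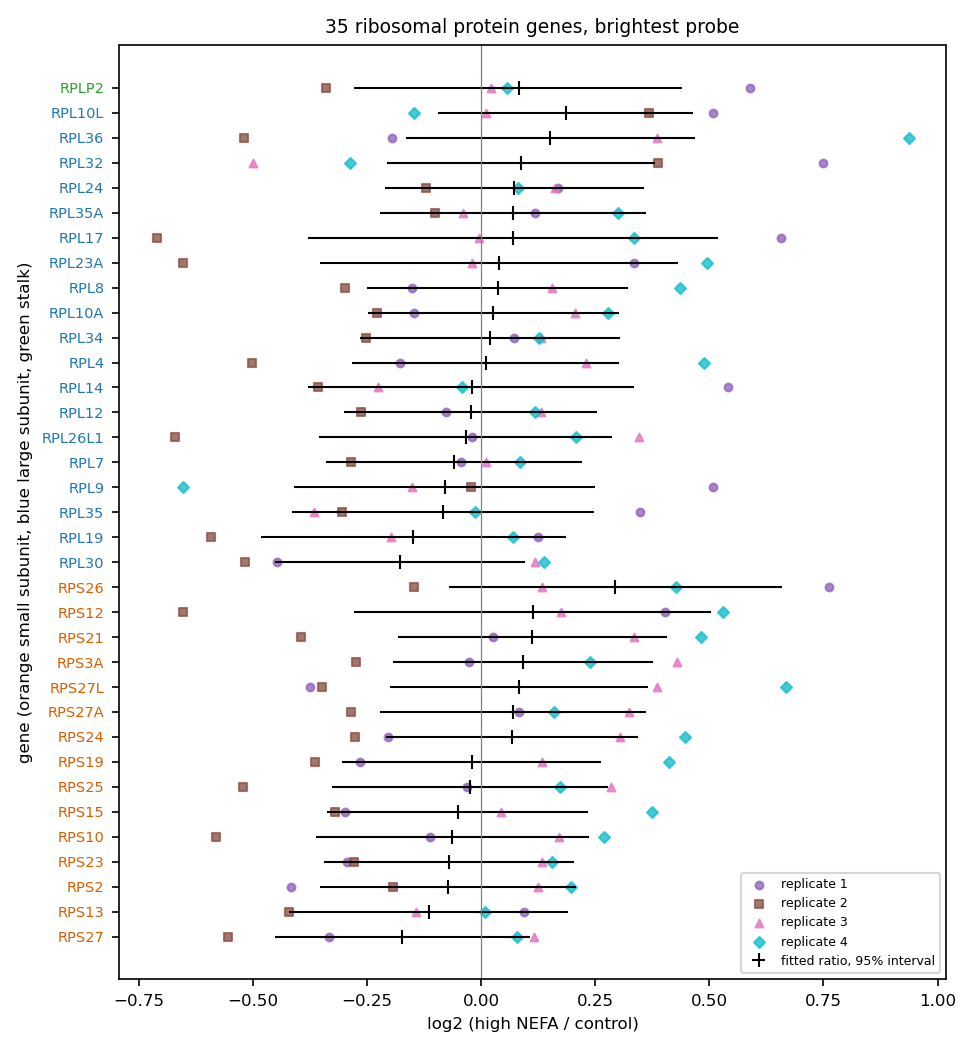
Log2 ratio of high NEFA over control on each of 4 arrays (coloured symbols) and the fitted ratio with its 95% interval (black) for 35 ribosomal protein genes, each by its brightest tested probe. Every interval includes 0, and the squares of replicate 2 lie left of 0 in 33 of 35 genes.

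In the small subunit, 15 genes were tested, 7 higher and 8 lower in high NEFA, with a median fitted ratio of -0.02. On replicate 2 all 15 were lower, with a median of -0.35, and on replicate 4 none was, with a median of 0.27. The medians of replicates 1 and 3 were -0.11 and 0.17. RPS26, which lies where the mRNA leaves the ribosome, had the highest ratio of all members. It read 15.16, 14.97, 15.00 and 15.16 in the high NEFA pools and 14.40, 15.12, 14.87 and 14.73 in the control pools. The fitted ratio of RPS26 was 0.29 ± 0.16 (SE; 95% interval -0.07 to 0.66; adjusted p = 0.77). It was higher in high NEFA on 3 arrays and lower on replicate 2, where the control pool was the highest control value. Its ratio was 0.52 without replicate 2 (adjusted p = 0.244), 0.07 without replicate 1 and 0.09 with mean pixels.

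RPS12, in the beak of the small subunit, had log2 ratios of 0.40, -0.65, 0.17 and 0.53 and a fitted ratio of 0.11 (95% interval -0.28 to 0.50; adjusted p = 0.915). RPS21 had ratios of 0.03, -0.39, 0.34 and 0.48 and a fitted ratio of 0.11 ± 0.13 (SE; adjusted p = 0.873). In both genes replicate 2 was the only array below 0.

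RPS3A, on the solvent side of the small subunit, was read by 3 probes. The brightest (EMPV1_25516) had ratios of -0.03, -0.28, 0.43 and 0.24 and a fitted ratio of 0.09 ± 0.13 (SE; adjusted p = 0.901). The other probes had fitted ratios of 0.14 (EMPV1_16251) and -0.24 (EMPV1_23490), the latter with an adjusted p of 0.777. EMPV1_16251 had ratios of 0.80, 0.49, -0.62 and -0.12, the reverse of the brightest probe on every array, with a dye effect of -0.51 against 0.24. The 3 probes of this gene therefore differed more in their dye effect than in their exposure ratio.

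RPS27 had the lowest ratio of the small subunit. It read 8.97, 9.41, 9.70 and 9.65 in the high NEFA pools against 9.31, 9.96, 9.58 and 9.57 in the control pools, a fitted ratio of -0.17 (95% interval -0.45 to 0.11; adjusted p = 0.818). The high NEFA pool was the lower on replicates 1 and 2 and the higher on replicates 3 and 4, and the groups overlapped. RPS27L, its paralog, had ratios of -0.35 on replicate 2 and 0.67 on replicate 4, a dye effect of 0.44 and a fitted exposure ratio of 0.08. RPS13 had ratios of 0.09, -0.42, -0.14 and 0.01 and a fitted ratio of -0.12 ± 0.14 (SE; adjusted p = 0.874).

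RPS27A is made as a fusion with ubiquitin, which is cleaved off to feed the cell's ubiquitin pool. It read 14.06, 13.98, 14.30 and 14.02 in the high NEFA pools and 13.98, 14.27, 13.98 and 13.86 in the control pools. Its fitted ratio was 0.07 ± 0.13 (SE; 95% interval -0.22 to 0.36; adjusted p = 0.935). The groups overlapped, and the control pool of replicate 2 stood above the other controls.

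The other 7 small subunit genes had fitted ratios between -0.07 and 0.07. RPS2, at the channel where mRNA enters, and RPS23, in the decoding centre, were both at -0.07. RPS10, which is tagged with ubiquitin when ribosomes collide, was at -0.06, RPS15 in the head of the subunit at -0.05, and RPS25 and RPS19 both at -0.02. RPS24, which like RPS19 is mutated in some patients with Diamond-Blackfan anaemia, was at 0.07 by its first probe and at 0.03 by its second. The first probe reached the end of the scale on replicates 1, 2 and 4. The RPS15 probe was above background in 2 high NEFA and 4 control pools and, among the brightest tested probes of the 35 genes, is the only one that was not above it throughout.

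Small minus large subunit, by the medians over genes, was -0.23, -0.05, 0.16 and 0.14 on replicates 1 to 4. The sign followed the dye order, and between fitted medians the difference was -0.04. The median dye effect was 0.25 in the small subunit, above 0 in 14 of 15 genes, and 0.11 in the large subunit, above 0 in 14 of 19.

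Of the 10 genes with more than 1 probe, 7 had probes whose fitted ratios lay within 0.3 of each other on the log2 scale. The gap was 0.52 in RPL26L1, 0.38 in RPS3A and 0.33 in RPL35A, and it was 0.04 in RPL10A, where 1 reading was above 65000. The 7 include RPS24, with a gap of 0.04 that rests on bounds, as its first probe reached the end of the scale on replicates 1, 2 and 4. The 2 probes at an unadjusted p under 0.05 were both the dimmer probe of their gene.

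**Figure D5:**
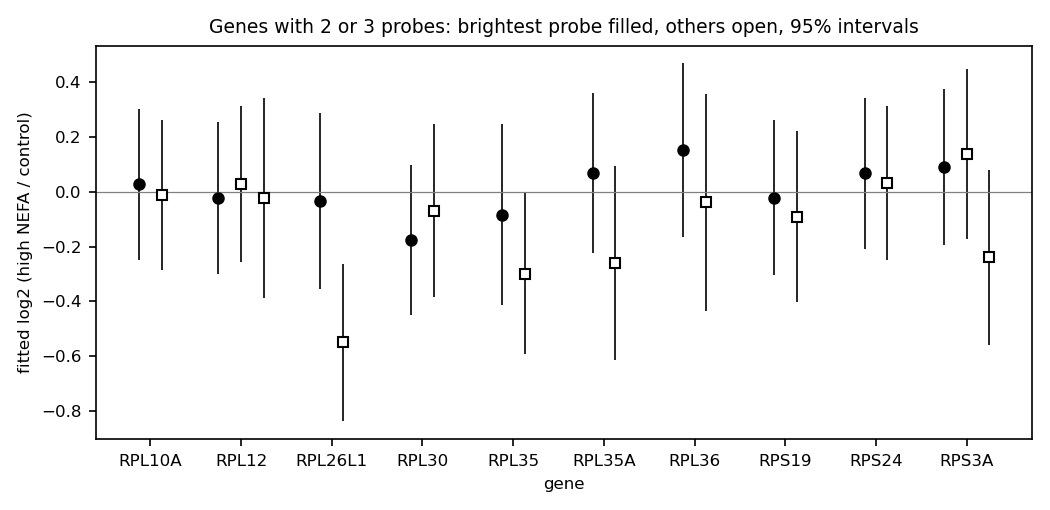
Fitted log2 ratio of high NEFA over control with its 95% interval for each probe of the 10 ribosomal protein genes that have 2 or 3 tested probes, the brightest probe filled. The intervals of the dimmer RPL26L1 and RPL35 probes end below 0, and those of all other probes include 0.

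Genes that act with the ribosomal proteins were read from lists, by the brightest tested probe of each gene. None of them passed the adjusted threshold. Outside the symbol rule, FAU, which encodes a small subunit protein fused to a ubiquitin-like one, had a fitted ratio of 0.07. NACA, which guards the nascent peptide, also had 0.07, and its second probe had 0.36. Of 47 tested ribosome biogenesis factors, the median ratio was 0.00, with 24 above 0 and 22 below. The helicase DDX54 was at -0.43 ± 0.13 (SE; adjusted p = 0.766) and lower on all 4 arrays, while its second probe was at -0.18. The nucleolar protein SURF6 was at 0.39, but it was above background in 4 high NEFA pools and 1 control pool and passed the filter through the group where it was higher.

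Of 12 genes of RNA polymerase I, which transcribes the ribosomal RNA, 4 had ratios above 0 and 8 below (median -0.05). TAF1D was at -0.40 from ratios of 0.23, 0.46, -1.10 and -1.21, and POLR1D at -0.24 from 0.17, 0.43, -0.88 and -0.67. Both changed sign with the dye order, and TAF1D was above background in 2 pools of each kind. Of 9 genes of the mTOR pathway and its control of ribosomal protein mRNAs, 7 lay above 0 and 2 below (median 0.09). AKT1S1, an inhibitor of mTOR signalling, was at 0.37 with ratios of -0.62, -1.08, 1.59 and 1.59 that also changed sign with the dye, and the kinase RPS6KB1 was at -0.24, above background in 2 high NEFA and 3 control pools. Of 5 genes listed for the surveillance of ribosomal proteins through MDM2, MDM2 itself among them, 3 were higher and 2 lower. MDM4 was at -0.29, and HUWE1 was at 0.18 with a second probe at -0.11. Of 4 translation factors, 3 were higher and 1 lower. EIF3H was at 0.23 from ratios of -0.09, -0.27, 0.82 and 0.46, which changed sign with the dye. The 7 probes of EEF1D ran from -0.36 to 0.16, with the brightest at -0.24 from ratios of 0.49, 0.71, -1.28 and -0.87, so they give the gene no single direction.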

How the data were processed

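Per the file headers, the scanner files as deposited give for Cy3 and Cy5 each spot's intensity and local background, as the median and as the mean over pixels. The authors' series matrix holds log2 ratios of unstated scale and direction. Set against the scanner files over 43794 spots, its columns followed log2 of Cy5 over Cy3 after background subtraction, loess and quantile normalization (correlation 0.992 to 1), with column medians of 0.00222, 0.00826, 0.00878 and 0.0161. It served as an alternative. The submitters' processing notes name limma without a version.

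From the median intensities, background was corrected by normexp with an offset of 50 and loess within each array, with weight 0 for control spots, followed (limma 3.58.1, R 4.3.3, statmod 1.5.0). The log2 intensities given for single pools, and the sums over marker lists, were further scaled between arrays by Aquantile normalization. That scaling left the ratios of each array unchanged, and the fit was run without it. Probes above background in at least 4 of 8 channel measurements were tested. Spots marked to be ignored (60, 21, 17 and 17 on replicates 1 to 4, none of a member) were left out. limma's lmFit and eBayes fitted an exposure coefficient and a dye intercept on 2 residual degrees of freedom, with 7.84 more from moderation. Tests were two-sided with Benjamini-Hochberg adjustment over all 24505 probes. The fit and the adjustment were tested on simulated log2 ratios. Background correction, loess and the filter on dim probes were not part of that test. The number of arrays limits the precision.

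A gene was represented by its brightest tested probe. Named with values on every array were the 6 highest and 6 lowest genes, the 3 of widest range, those at an unadjusted p of 0.05, those whose probes differed by over 0.3, RPLP2 and RPS27A. Of each other list the 2 genes of smallest p were named. The members, the lists and this rule were chosen with earlier results of these data known. RPS19BP1, set aside, had a fitted ratio of 0.05 ± 0.13 (SE; adjusted p = 0.954). Alternatives changed background correction, pixel summary, normalization, dim-probe filter, dye term, moderation, spots at or above 65000, values used, the probe that stands for a gene, and arrays left out. No genome or sequence table was used here, so no positions or sequences are given.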

Additional observations from a re-analysis of the deposited data

Results flagged for a closer look

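In 1 of the 47 tested probes, 1 array stood apart from the other 3 by Dixon's test at the 95% level, and chance alone gives such a result in about 1 of 20 probes. The probe was that of RPL34, a protein of the large subunit, and the array was replicate 2. Its log2 ratio of high NEFA over control was -0.25 there, against 0.07, 0.13 and 0.13 on replicates 1, 3 and 4, with a gap of 0.843 of the whole range. Replicate 2 was also the array on which 43 of the 47 probes were lower in high NEFA. The cause was not tested.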

How the results depend on the processing

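No ribosomal protein probe passed the adjusted threshold under any alternative run, arrays left out included, and the smallest adjusted p was 0.111 without replicate 1. The median of the 47 fitted ratios stayed between -0.05 and 0.00, and between -0.07 and 0.09 with an array left out. The small minus large difference stayed between -0.05 and 0.01, and between -0.02 and 0.03 with an array left out. Of members at an unadjusted p under 0.05 there were 2 in the report. There was 1 with an offset of 16, 1 background per array and channel, median centring, the filter on all 8 channels, no dye intercept, the trended and robust prior, or the authors' matrix, and there were 0 with mean pixel intensities. With an array left out there were 1 to 5, the 5 without replicate 2 and the 1 without replicate 3. Members with the same sign on every array numbered 1 in the report, 0 with mean pixels or the filter on all 8 channels, 2 with median centring or the authors' matrix, and 2 to 9 on 3 arrays. Of all probes, 0 passed the adjusted threshold, against 6 with plain subtraction, 4 with an offset of 16, 5 without a filter and 3 in the authors' matrix. With an array left out 21 to 77 passed. At an unadjusted p under 0.05 there were 1570, against 3161 without a filter, 755 with the filter on all 8 channels and 201 without the dye intercept, and 1206 to 2357 with an array left out, the most without replicate 2. Fitted ratios changed sign in 17 of 47 members with mean pixels, 6 with median centring, 3 in the authors' matrix, and 7 to 15 with an array left out. Some were large: RPL17 went from 0.07 to -0.27 without replicate 1. With the mean over a gene's probes in place of the brightest, the 10 genes with several probes ran from -0.29 to 0.06, and RPL26L1 went from -0.03 to -0.29 and RPL35A from 0.07 to -0.09. The cause of these changes was not tested. The 4 arrays and readings near the scanner's ceiling or near background limit what could be seen.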
